A study of Mus musculus with 22 samples.

Results

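The antibiotic response of the colon epithelium in mice without the polymeric immunoglobulin receptor was measured on 12 of the 22 arrays of the series, chosen by their titles: 6 from antibiotic-treated and 6 from untreated pIgR-KO animals, with all 10705 genes that passed the detection filter. KO_antibiotic mice were pIgR knockouts on the BALB/c background, labelled male, 6 to 10 weeks old and given antibiotics for 17 days. KO_untreated mice had the same genotype, strain, sex and age and received nothing. WT_antibiotic (5 arrays) and WT_untreated (5 arrays) mice were wild type, with the same strain, sex, age and treatments, and served to set the response against that of mice with the receptor. All groups share the release of epithelium by shaking opened colon pieces in 20 mM EDTA for 25 min, with no sorting step named. Which antibiotics were given, how the receptor gene was disrupted and whether an array held RNA of 1 animal or of several are not stated in the sources at hand, so p-values measure only the spread between these arrays. Biotin-labelled RNA was hybridised to Illumina bead arrays.

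The polymeric immunoglobulin receptor sits on the basal side of gut epithelial cells, binds IgA and IgM made by plasma cells below, and carries them to the lumen as secretory antibody. The colon epithelium is renewed from dividing cells in the crypts, whose offspring become absorptive colonocytes near the surface or secretory goblet, tuft and enteroendocrine cells. Gut bacteria are known to stimulate the epithelium to make antimicrobial proteins, mucus and oxidants, and antibiotics deplete those bacteria.

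All levels below are background-corrected, quantile-normalised log2 signals and compare arrays for 1 probe, not genes with each other. A difference is KO_antibiotic minus KO_untreated with its standard error (SE), fitted with limma, and the words rose and fell are kept for genes with a Benjamini-Hochberg adjusted p under 0.05 over 19993 probes. Each gene is read by its brightest tested probe. Of 649 called genes with several tested probes, 254 had all of them called the same way, as did 63 of the 93 such genes among those chosen for naming. The knockout check came first: Pigr, read by 1 probe, had log2 levels of 8.74, 9.23 and 10.25 (lowest, median and highest) in KO_antibiotic, against 8.93, 10.19 and 10.73 in KO_untreated. On the WT_antibiotic arrays it lay between 11.32 and 12.01, and on the WT_untreated arrays between 11.61 and 12.50, so the highest KO level lay below the lowest WT level. The KO groups overlapped each other, and the antibiotic difference did not pass (log2 -0.65, SE 0.29, adjusted p = 0.158). It passed without KO_untreated 1 (adjusted p = 0.0379), and its lowest adjusted p over the other alternatives was 0.0238, with each array's detected probes as a covariate. The labels do not say which part of the gene was disrupted or whether the probe covers it, and the signal that remains is no measure of receptor protein.

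Between 15975 and 18343 probes were detected on the KO_antibiotic arrays, and between 16366 and 18388 on the KO_untreated arrays. Some arrays stood apart within their group. KO_antibiotic arrays 1 to 3 correlated with each other at 0.974 to 0.981 and arrays 4 to 6 at 0.962 to 0.979, against 0.939 to 0.974 across these sets. KO_untreated 1 correlated with the other KO_untreated arrays at 0.963 to 0.968, while those correlated among themselves at 0.971 to 0.986. It is also the 1 KO_untreated array whose description lacks a suffix that the other 5 carry and that no other group has. What the suffix stands for is not given here, so a batch behind it and the untreated state cannot be told apart for those 5 arrays. Of 15 markers that define intestinal epithelium, 13 did not pass the test, Epcam, Cdh1, Krt8, Krt19, Krt20, Vil1 and Cdx2 among them, while Krt18 and Elf3 fell, and the median difference of the 15 was 0.02.

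Between KO_antibiotic and KO_untreated, 1580 of 10705 genes passed the threshold, 14.8%, of which 659 rose (6.16% of all) and 921 fell (8.6%). More than 2-fold, 117 rose (1.09%) and 268 fell (2.5%). For 290 genes (2.71%) every KO_antibiotic array lay above every KO_untreated array, and for 499 (4.66%) below. The median difference of all genes was 0.01. These shares of all genes are the background for the list counts below. By probes, 2478 of 19993 passed (12.4%), 1066 higher (5.33%) and 1412 lower (7.06%), and without KO_untreated 1 the count was 2291. With KO_untreated 1 as the only untreated array, assumed to vary like the other groups, it was 420, 75 of them higher and 345 lower. Set against KO_untreated 1 alone, 23 cell cycle, 8 unfolded protein, 5 antimicrobial and 3 goblet cell genes of the lists below fell, 1 phase I gene rose and 0 mast cell genes passed. Without KO_antibiotic 5 and 6 the count of probes was 2485, with 1272 higher and 1213 lower.

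Phospholipase genes were among the 15 largest falls, and a cytochrome and a brush border peptidase gene among the 15 largest rises. Pla2g4c, which encodes a phospholipase A2 of the cytosolic group, had log2 levels of 4.31, 4.37 and 4.49 in KO_antibiotic, against 9.78, 10.70 and 11.44 in KO_untreated. It was detected on 0 of 6 arrays with antibiotics and on 6 of 6 without, which gives a fall of at least 59.1-fold (adjusted p = 1.11e-05). Pla2g2a, whose product is a secreted phospholipase A2 that kills bacteria by cutting their membrane lipids, measured 7.42, 8.74 and 9.37 in KO_antibiotic, against 13.10, 13.39 and 13.70 in KO_untreated. The gap between the groups was wider than the spread within either, and the level was 27.3-fold lower (log2 -4.77, SE 0.48, adjusted p = 9.82e-07). At the other end, Cyp4b1, a cytochrome P450 of fatty acid and xenobiotic oxidation, measured 7.36, 9.17 and 9.80 in KO_antibiotic, against 4.58, 5.21 and 6.37 in KO_untreated. All 6 arrays with antibiotics were higher, by 11.8-fold on average (log2 3.56, SE 0.41, adjusted p = 4.26e-06). Its near-identical pseudogene Cyp4b1-ps2 gave 3.60, adjusted p = 1.44e-05, and the probes may share transcript, so the pair is uncertain. Naaladl1, a brush border peptidase gene, measured 6.20, 7.75 and 8.68 in KO_antibiotic, against 4.32, 4.46 and 5.19 in KO_untreated, again without overlap (7.98-fold, log2 2.996, SE 0.32, adjusted p = 1.85e-06).

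**Figure D1:**
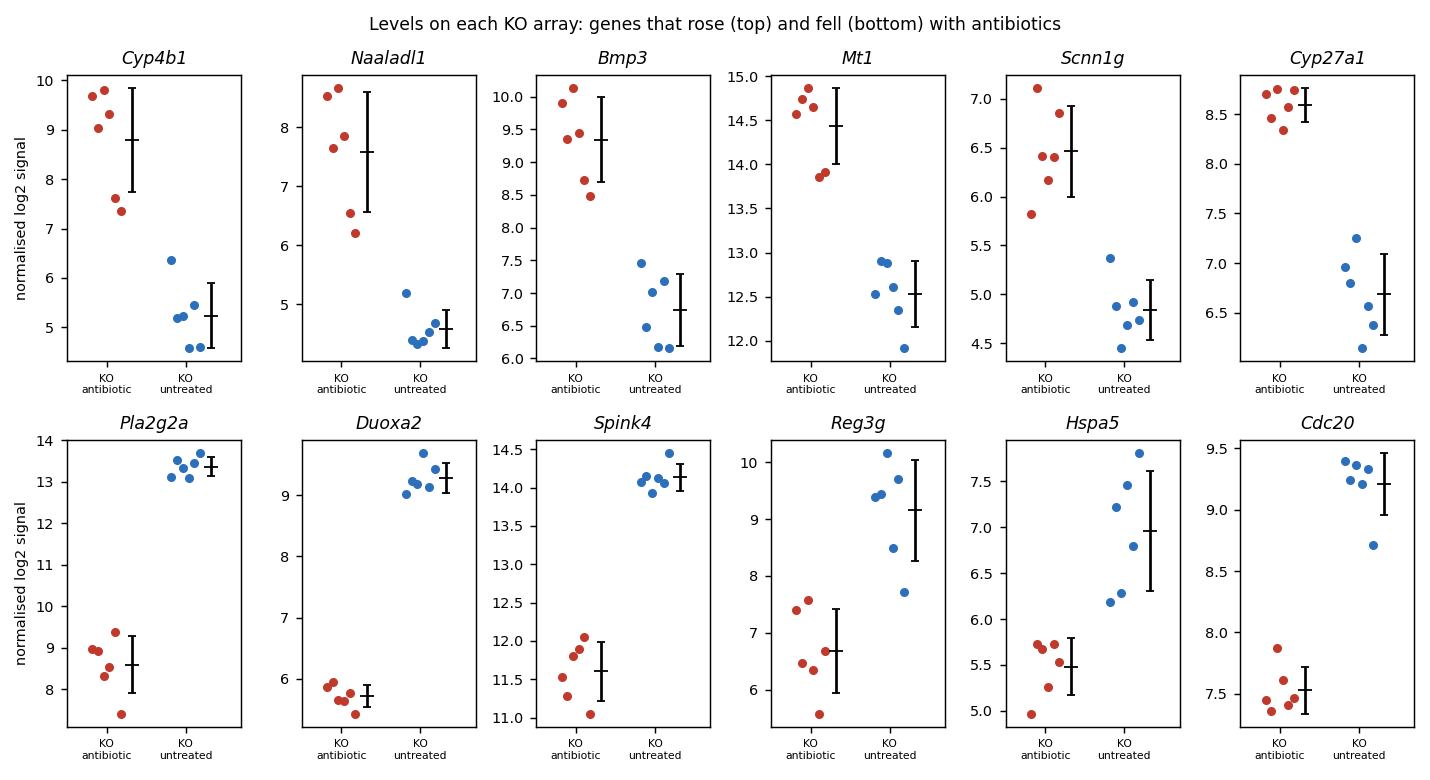
Normalised log2 signal of 6 genes that rose (top row) and 6 that fell (bottom row) on each KO array. Points are single arrays, with KO_antibiotic left of KO_untreated, and the black bars give the mean and SD of 6 arrays. In every panel the groups are apart, as for Pla2g2a with 9.37 as the highest KO_antibiotic level and 13.10 as the lowest KO_untreated level.

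Of 28 antimicrobial genes, 12 fell, against 8.6% of all genes, and 0 rose (median -0.36). For 9 every treated array lay below every untreated one, against 4.66% of all genes. Reg3g, a lectin gene whose product binds Gram-positive bacteria, measured 5.58, 6.58 and 7.58 in KO_antibiotic, against 7.71, 9.42 and 10.16 in KO_untreated, and all arrays with antibiotics lay lower (log2 -2.47, SE 0.48, adjusted p = 0.000974). Its relative Reg3b overlapped, with 4 of 6 antibiotic arrays below every untreated one (log2 -2.54, SE 0.48, adjusted p = 0.000844). Retnlb, which encodes the goblet cell resistin-like protein, measured 7.84, 11.98 and 12.32 in KO_antibiotic, against 14.44, 14.57 and 14.71 in KO_untreated. It fell by 3.25 on the log2 scale (SE 0.62, adjusted p = 0.000898), and KO_antibiotic 6 lay far below the other treated arrays. The same array had the lowest level of Ang4, a secreted ribonuclease gene, for which the arrays read 4.71, 11.03 and 11.77 in KO_antibiotic, against 13.42, 14.02 and 14.21 in KO_untreated. Its call (log2 -3.82, SE 1.11, adjusted p = 0.0246) was lost without KO_antibiotic 6 (adjusted p = 0.0573).

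The other members that fell were Reg4, Pglyrp1, Retnla, Sprr1a, Pla2g2a and the defensin genes Defa3, Defa20 and Defa23. Defa3, which codes for an antibacterial peptide of Paneth cells in the small intestine, measured 4.27, 4.38 and 4.59 in KO_antibiotic, against 6.25, 7.78 and 8.75 in KO_untreated. It was undetected on every KO_antibiotic array and fell at least 6.98-fold (adjusted p = 1.85e-06). Defa20 fell at least 3.74-fold (adjusted p = 6.04e-06) and Defa23 at least 2.83-fold (adjusted p = 3.89e-05). Defa20 was detected in KO_untreated alone of all groups, so it passed the detection filter only through that group. A fall was thus the only call open to it, and its p-value and its place in the count of falls are no separate support. Alpha-defensin genes are near-identical copies, so their probes may read each other's transcripts. Reg4, a lectin gene of secretory cells, fell 11.9-fold, with levels of 6.23, 6.37 and 7.54 in KO_antibiotic, against 8.50, 10.37 and 11.02 in KO_untreated. The lysozyme gene Lyz1, the lipocalin gene Lcn2 and the calprotectin genes S100a8 and S100a9 had differences of 0.04 to 0.16 and did not pass.

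Of 12 tested epithelial oxidase and acute phase genes, 8 fell and 1 rose (median -0.77), genes for the making of peroxide and superoxide among the 8. Duoxa2, the maturation factor of the dual oxidase, measured 5.43, 5.71 and 5.94 in KO_antibiotic, against 9.02, 9.20 and 9.69 in KO_untreated. The gap between the groups was wider than the spread within either, and the level was 11.8-fold lower (log2 -3.56, SE 0.29, adjusted p = 5.96e-08). Duox2, the oxidase itself, fell too (log2 -1.82, SE 0.24, adjusted p = 1.45e-05). It was detected on 1 of 6 arrays with antibiotics and on 6 of 6 without, so background limits the measured size of its fall. Nox1, the superoxide-producing oxidase of the colon, measured 4.42, 5.23 and 6.21 in KO_antibiotic, against 7.07, 7.75 and 8.09 in KO_untreated (log2 -2.42, SE 0.33, adjusted p = 2.93e-05). Its activator Noxa1 fell with it (log2 -0.97, SE 0.16, adjusted p = 0.000186). Saa3 fell (log2 -1.66, SE 0.32, adjusted p = 0.000931), whereas Saa1, another serum amyloid A gene, rose without overlap (log2 1.11, SE 0.21, adjusted p = 0.000767). Lbp, whose product binds lipopolysaccharide, was undetected with antibiotics and fell at least 1.62-fold (adjusted p = 0.000344).

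Goblet cell genes fell more often than they rose. Of 26 tested, 14 fell and 1 rose (median -0.59), against 8.6% and 6.16% of all genes, and 11 had every antibiotic array below every untreated one. Retnlb, Ang4 and Reg4, counted above among the antimicrobial genes, are members of this list too, so the counts are not separate. Spink4, a secreted protease inhibitor gene of goblet cells, measured 11.05, 11.67 and 12.06 in KO_antibiotic, against 13.93, 14.10 and 14.45 in KO_untreated, with no overlap, and was 5.76-fold lower (log2 -2.53, SE 0.26, adjusted p = 1.73e-06). The differentiation factor gene Spdef (log2 -1.69, SE 0.28, adjusted p = 0.00025) and Foxa3 (log2 -0.998, SE 0.15, adjusted p = 0.000103) fell, as did Agr2, a disulfide isomerase needed to fold mucin (log2 -1.35, SE 0.26, adjusted p = 0.000951). Muc2, the main gel-forming mucin of the colon, measured 13.80, 14.56 and 14.64 in KO_antibiotic, against 14.54, 14.69 and 14.74 in KO_untreated. By this brightest of its 3 tested probes it overlapped and did not pass (log2 -0.22, SE 0.13, adjusted p = 0.3), and KO_antibiotic 6 held its lowest level. The other 2 probes fell, and with probes averaged per gene the difference was -0.82 (limma adjusted p = 0.00221), so the call for Muc2 depends on the probe. Clca1, a secreted goblet cell protein gene, did not pass either (-0.37, adjusted p = 0.147). The single riser was Tff3, the trefoil peptide gene (log2 0.52, SE 0.17, adjusted p = 0.0451), whose call was lost without any one of 10 of the 12 KO arrays, all but KO_untreated 1 and 6 (highest adjusted p 0.109).

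Genes of mucins and of the enzymes that dress them with sugars were lower in 12 of 35 cases and higher in 1, Gcnt2 (median -0.40). Fut2, which adds the terminal fucose that gut bacteria feed on, measured 8.81, 9.16 and 9.42 in KO_antibiotic, against 10.06, 10.52 and 10.90 in KO_untreated and was lower on every treated array (log2 -1.40, SE 0.22, adjusted p = 0.000116). The sialyltransferase gene St3gal4 was undetected with antibiotics and fell at least 2.56-fold (adjusted p = 1.1e-05). Chst4, a sulfotransferase gene (log2 -1.35, SE 0.23, adjusted p = 0.000249), and B3galt5, a galactosyltransferase gene (log2 -1.03, SE 0.19, adjusted p = 0.000711), fell as well. Among membrane mucins, Muc20 (log2 -0.83, SE 0.13, adjusted p = 0.000116) and Muc4 fell. Muc4 was undetected with antibiotics and was lower at least 1.59-fold (adjusted p = 0.000119).

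Genes of protein folding in the endoplasmic reticulum fell. This compartment folds secreted proteins, and its chaperone genes are known to be switched on when unfolded protein builds up, through an element named ERSE in their promoters. Of 37 tested genes of the unfolded protein and ATF4 response, 19 fell and 0 rose (median -0.57), and for 17 the groups did not overlap. Creld2, a chaperone-like gene, measured 8.03, 8.52 and 8.56 in KO_antibiotic, against 10.09, 10.16 and 10.80 in KO_untreated and was 3.55-fold lower (log2 -1.83, SE 0.20, adjusted p = 2.19e-06). Hspa5, which encodes the chief chaperone BiP, measured 4.97, 5.60 and 5.73 in KO_antibiotic, against 6.18, 7.01 and 7.81 in KO_untreated. Every treated array lay below every untreated one (log2 -1.48, SE 0.26, adjusted p = 0.00035). The disulfide isomerase genes Pdia4 (log2 -1.10, SE 0.14, adjusted p = 1.5e-05), Pdia5 (log2 -1.52, SE 0.23, adjusted p = 9.02e-05) and Pdia6 (log2 -1.27, SE 0.18, adjusted p = 5.48e-05) fell, and so did Hyou1 (log2 -1.55, SE 0.19, adjusted p = 9.19e-06), Sdf2l1 (log2 -1.52, SE 0.22, adjusted p = 5.28e-05) and the lectin chaperone gene Calr (log2 -0.84, SE 0.14, adjusted p = 0.000221). Xbp1, the transcription factor gene of secretory cells, fell by 0.46 on the log2 scale (SE 0.11, adjusted p = 0.00602).

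The ERSE, written as CCAAT, 9 bases of any kind and CCACG, was searched on both strands in the 250 bases before the start of each gene in RefSeq's promoter table (GRCm38.p6). It stood in 0.13% of 27025 genes, 35 in all. Among the 19 genes of the list that fell, 17 had a promoter entry and 4 held it, shown here because they fell together, with the match in capitals. Of all 37 tested members, 32 had an entry and 6 held it, the other 2 being Dnajc3 and Hsp90b1, which did not pass the test. A match is a description of the letters and not evidence of binding. Each window is printed 5′ to 3′ on the strand of the gene and ends at the base before its start. Hspa5 lies at chr2:34771840-34772089 (+ strand), Creld2 at chr15:88819396-88819645 (+ strand), Pdia6 at chr12:17266339-17266588 (+ strand) and Calr at chr8:84846932-84847181 (- strand). In Creld2 and Calr the match reads on the opposite strand.
Hspa5: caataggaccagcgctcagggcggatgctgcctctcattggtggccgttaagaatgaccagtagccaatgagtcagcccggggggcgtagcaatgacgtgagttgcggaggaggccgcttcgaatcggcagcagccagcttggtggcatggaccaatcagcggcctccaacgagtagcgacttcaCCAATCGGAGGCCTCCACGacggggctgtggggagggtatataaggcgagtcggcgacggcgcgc
Creld2: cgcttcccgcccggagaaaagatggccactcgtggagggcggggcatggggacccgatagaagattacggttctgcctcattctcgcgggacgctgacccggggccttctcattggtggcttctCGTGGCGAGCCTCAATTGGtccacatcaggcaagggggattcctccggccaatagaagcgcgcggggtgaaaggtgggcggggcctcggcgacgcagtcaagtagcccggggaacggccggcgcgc
Pdia6: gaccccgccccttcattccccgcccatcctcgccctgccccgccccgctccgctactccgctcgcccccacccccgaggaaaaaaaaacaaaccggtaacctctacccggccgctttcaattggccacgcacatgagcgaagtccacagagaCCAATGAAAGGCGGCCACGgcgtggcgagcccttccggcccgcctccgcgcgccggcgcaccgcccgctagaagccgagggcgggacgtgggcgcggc
Calr: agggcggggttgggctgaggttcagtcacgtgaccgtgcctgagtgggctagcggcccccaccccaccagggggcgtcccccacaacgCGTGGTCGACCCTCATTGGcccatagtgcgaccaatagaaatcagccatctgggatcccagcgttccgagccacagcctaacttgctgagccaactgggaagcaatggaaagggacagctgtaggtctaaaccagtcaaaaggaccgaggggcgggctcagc

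Genes of amino acid supply that ATF4 controls fell in the same list. Asns, the asparagine synthetase gene, measured 8.69, 9.01 and 9.23 in KO_antibiotic, against 10.03, 10.43 and 10.81 in KO_untreated and did not overlap (log2 -1.45, SE 0.16, adjusted p = 2.19e-06). Chac1, which codes for an enzyme that breaks down glutathione, was 6.5-fold lower (log2 -2.70, SE 0.34, adjusted p = 9.48e-06). Serine synthesis genes Psat1 (log2 -1.37, SE 0.27, adjusted p = 0.00102) and Phgdh (log2 -1.23, SE 0.19, adjusted p = 0.000115), the folate enzyme gene Mthfd2 (log2 -1.74, SE 0.19, adjusted p = 2.19e-06) and the proline synthesis gene Aldh18a1 (log2 -1.23, SE 0.19, adjusted p = 9.37e-05) were lower. Ddit3, the stress factor gene named CHOP, did not pass (log2 -0.21, SE 0.18, adjusted p = 0.533). The transcription factor genes Atf4 and Atf6 did not pass either, with differences of -0.25 and -0.53.

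Genes of cell division fell. Of 38 tested genes of DNA replication and mitosis, 29 fell and 0 rose, the other 9 also had negative differences, the median was -0.89, and for 20 every treated array lay below every untreated array. Cdc20, which activates the ubiquitin ligase that ends mitosis, measured 7.36, 7.46 and 7.87 in KO_antibiotic, against 8.71, 9.29 and 9.40 in KO_untreated and was 3.2-fold lower (log2 -1.68, SE 0.21, adjusted p = 9.03e-06). The spindle checkpoint kinase gene Bub1b (log2 -1.42, SE 0.18, adjusted p = 9.37e-06), the mitotic kinase genes Plk1 (log2 -1.42, SE 0.22, adjusted p = 0.00013) and Aurkb (log2 -1.25, SE 0.24, adjusted p = 0.000991), and Birc5 (log2 -1.39, SE 0.20, adjusted p = 5.9e-05), whose product works with Aurkb, fell alike. Replication genes did so too: Mcm10 measured 6.73, 6.91 and 7.09 in KO_antibiotic, against 7.88, 8.02 and 8.64 in KO_untreated (log2 -1.20, SE 0.15, adjusted p = 1.3e-05), and Mcm5, part of the replicative helicase, gave -1.27, adjusted p = 0.000423. Cdk1, the kinase that drives entry into mitosis, measured 6.65, 7.07 and 7.34 in KO_antibiotic, against 7.83, 8.33 and 9.18 in KO_untreated (log2 -1.28, SE 0.25, adjusted p = 0.00104). KO_untreated 1 had the highest levels of Mcm2, Mcm5 and Mcm10, and without that array 26 of the 38 genes fell. The sliding clamp gene Pcna overlapped and did not pass (log2 -0.16, SE 0.16, adjusted p = 0.612).

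Many mitotic genes carry near their start a short element named CHR, TTTGAA or TTCGAA. Searched on both strands in the same 250 bases, these letters stood in 19.6% of 27025 genes, in 7 of 23 genes of the list that fell and have an entry, and in 10 of 30 tested genes with an entry. TTCGAA reads the same on both strands, and the ERSE was searched in another list. Cdc20, at chr4:118437344-118437593 (- strand), and Cdk1, at chr10:69352913-69353162 (- strand), are shown with their matches in capitals, since they are the activator and the kinase of mitosis that fell together.
Cdc20: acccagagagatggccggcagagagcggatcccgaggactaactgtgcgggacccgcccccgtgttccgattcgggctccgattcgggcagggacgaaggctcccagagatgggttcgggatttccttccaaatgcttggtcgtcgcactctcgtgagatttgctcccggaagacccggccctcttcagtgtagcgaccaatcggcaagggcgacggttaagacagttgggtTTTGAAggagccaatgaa
Cdk1: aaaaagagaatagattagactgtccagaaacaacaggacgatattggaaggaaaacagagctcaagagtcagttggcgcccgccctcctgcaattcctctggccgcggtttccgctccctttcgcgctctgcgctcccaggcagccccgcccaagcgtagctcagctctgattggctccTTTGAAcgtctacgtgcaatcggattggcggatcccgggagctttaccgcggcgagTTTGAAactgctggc

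Crypt base and Wnt target genes fell in 6 of 18 cases and rose in 0 (median -0.34). Cd44, a surface receptor gene and Wnt target, fell (log2 -1.15, SE 0.29, adjusted p = 0.00828), as did the RNA-binding factor gene Mex3a (log2 -0.55, SE 0.14, adjusted p = 0.00769). Lgr5, the marker of crypt base stem cells, measured 4.33, 4.69 and 5.18 in KO_antibiotic, against 4.40, 4.78 and 4.98 in KO_untreated, overlapped fully and did not pass (log2 -0.09, SE 0.15, adjusted p = 0.783). Background may limit any change that Lgr5 could show, and how far it does was not tested.

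Absorptive and detoxifying genes rose. Of 28 genes of phase I xenobiotic metabolism, which oxidise or hydrolyse foreign compounds, 16 rose and 0 fell (median 0.83), and for 13 every treated array was higher. Cyp27a1, a sterol hydroxylase gene, measured 8.34, 8.64 and 8.76 in KO_antibiotic, against 6.14, 6.68 and 7.26 in KO_untreated and was 3.76-fold higher (log2 1.91, SE 0.24, adjusted p = 1.14e-05). Cyp4f14 (log2 1.54, SE 0.18, adjusted p = 5.28e-06), Cyp3a13 (log2 1.58, SE 0.20, adjusted p = 1.11e-05) and Cyp2d10 (log2 1.70, SE 0.23, adjusted p = 2.58e-05) rose, as did the epoxide hydrolase gene Ephx2 (log2 1.58, SE 0.24, adjusted p = 8.93e-05) and the carboxylesterase gene Ces1d (log2 1.68, SE 0.35, adjusted p = 0.00188). Of 34 phase II genes, whose enzymes join polar groups to compounds, 13 rose and 2 fell (median 0.46). Ugt1a1, the bilirubin glucuronosyltransferase gene, measured 6.55, 8.003 and 8.72 in KO_antibiotic, against 5.52, 5.88 and 6.52 in KO_untreated (log2 1.85, SE 0.33, adjusted p = 0.000423). Sulfotransferase genes Sult1d1 (log2 1.60, SE 0.28, adjusted p = 0.000303) and Sult1a1 (log2 0.97, SE 0.15, adjusted p = 0.000146) rose, and the 2 that fell were the glutathione transferase genes Gstm5 and Gstt2. Probes of Ugt1a genes may share the common 3' exons of that locus.

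Aldehyde, alcohol and aldo-keto dehydrogenase genes rose in 9 of 28 cases and fell in 1 (median 0.37). Akr1c19 measured 10.66, 11.78 and 12.72 in KO_antibiotic, against 8.95, 9.68 and 10.73 in KO_untreated, with 5 of 6 treated arrays above every untreated one (log2 1.98, SE 0.32, adjusted p = 0.000156). Aldh1a1, which makes retinoic acid, rose (log2 1.26, SE 0.24, adjusted p = 0.00101), and the 1 that fell was Aldh18a1, named above. The level of these groups was not even among the treated arrays. Averaged over the phase I list after centring each gene, KO_antibiotic 5 and 6 stood at 0.09 and 0.04, the other 4 treated arrays at 0.58 to 0.80, and the untreated arrays at -0.72 to -0.22. Without KO_antibiotic 5 and 6 the phase I list counted 21 that rose.

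**Figure D2:**
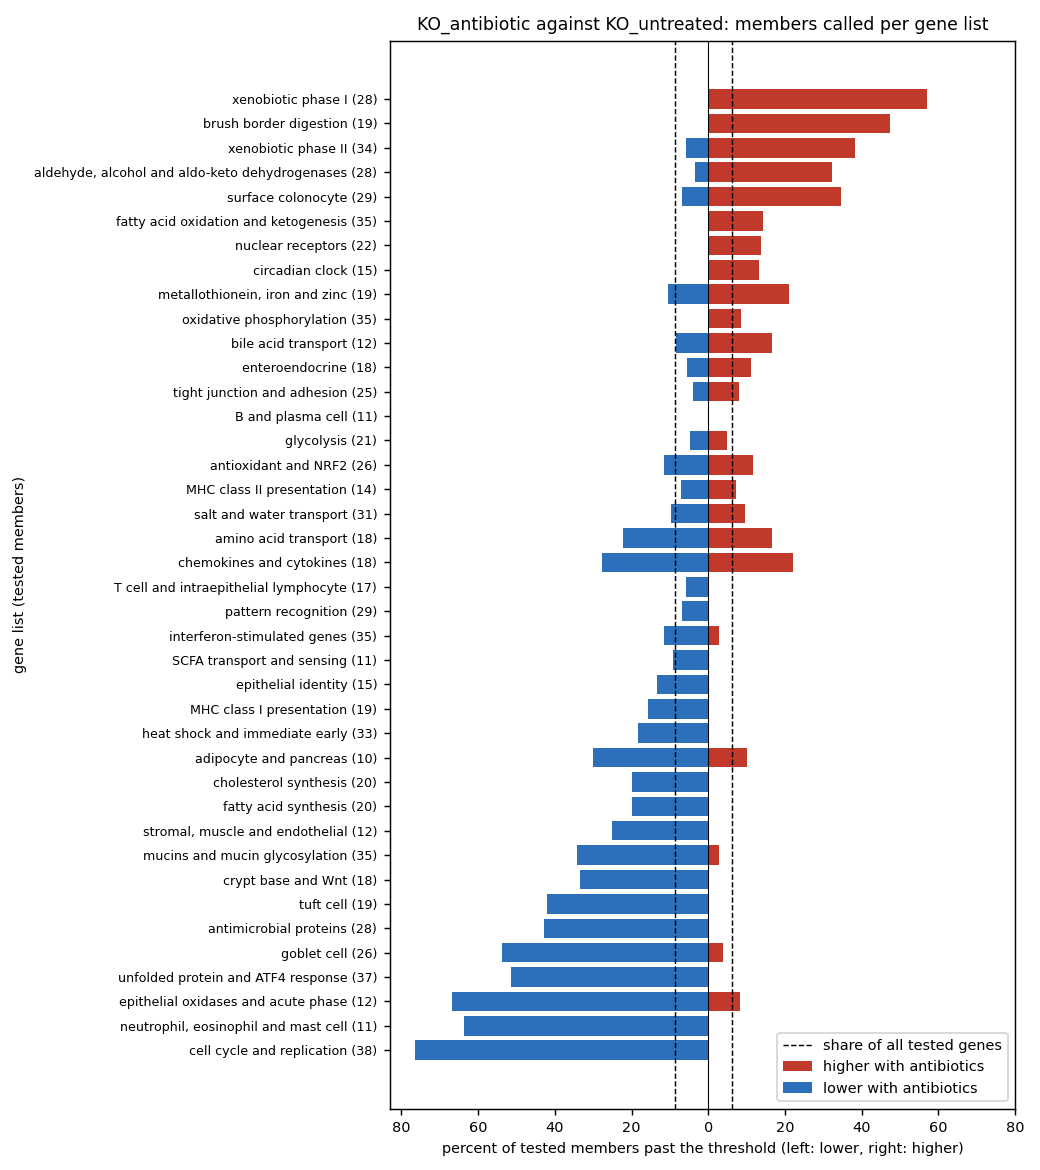
Share of each gene list that passed the threshold, with members higher in KO_antibiotic to the right and members lower in it to the left, in percent of the tested members given in brackets. Lists with at least 10 tested members are drawn. The dashed lines mark the share of all 10705 genes, 6.16% higher and 8.6% lower, and the cell cycle list reaches 76.3% on the lower side.

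Brush border genes rose in 9 of 19 cases and fell in 0 (median 0.38). Mep1a, the gene of a membrane protease subunit, measured 10.33, 11.40 and 11.70 in KO_antibiotic, against 9.51, 10.06 and 10.27 in KO_untreated (log2 1.29, SE 0.22, adjusted p = 0.000234), and its partner Mep1b rose as well (log2 1.05, SE 0.21, adjusted p = 0.00113). Sis, the gene of sucrase-isomaltase, which is typical of the small intestine, was detected on all 6 treated arrays and on 0 of 6 untreated arrays, a rise of at least 2.19-fold (adjusted p = 0.000263). Surface colonocyte genes rose in 10 of 29 cases and fell in 2, Cd177 and Aqp4 (median 0.38). The water channel gene Aqp4 was called by 1 of its 2 tested probes, and the call was lost in 17 of 28 alternatives, among them the removal of any one of KO_untreated 2 to 6 or KO_antibiotic 1 to 4 (highest adjusted p 0.119). The magnesium channel gene Trpm6 (log2 1.34, SE 0.25, adjusted p = 0.000696), the adhesion gene Tmigd1 (log2 1.20, SE 0.27, adjusted p = 0.00363) and the sulfate transporter gene Slc26a2 (log2 0.87, SE 0.20, adjusted p = 0.00467) rose. Cd177, a surface glycoprotein gene, measured 7.60, 8.71 and 9.05 in KO_antibiotic, against 11.33, 11.88 and 11.95 in KO_untreated and was 9-fold lower (log2 -3.17, SE 0.31, adjusted p = 8.56e-07). Car1, an abundant carbonic anhydrase gene of the colon, did not pass (log2 0.13, SE 0.14, adjusted p = 0.637), and Aqp8, another water channel gene, did not either (0.38, adjusted p = 0.445).

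Genes of salt and amino acid uptake moved in both directions. Of 31 salt and water transport genes, 3 rose and 3 fell (median -0.004). The share called in that list, 19.4%, was not far from the 14.8% of all genes. Scnn1g, a subunit of the epithelial sodium channel, measured 5.82, 6.41 and 7.12 in KO_antibiotic, against 4.45, 4.81 and 5.37 in KO_untreated (log2 1.62, SE 0.22, adjusted p = 3e-05), and Fxyd4, a regulator of the sodium pump, was 6.33-fold higher (log2 2.66, SE 0.47, adjusted p = 0.000443). Fxyd3 (log2 -1.17, SE 0.22, adjusted p = 0.000841) and the potassium channel gene Kcnn4 (log2 -0.76, SE 0.15, adjusted p = 0.000959) fell. Among 18 amino acid transporter genes 3 rose and 4 fell (median -0.11), a share called of 38.9%. Slc7a9, the light chain of the cystine transporter, measured 8.08, 8.50 and 8.98 in KO_antibiotic, against 6.15, 6.58 and 7.20 in KO_untreated (log2 1.91, SE 0.19, adjusted p = 7.49e-07), and the peptide transporter gene Slc15a1 rose too (log2 1.08, SE 0.22, adjusted p = 0.00138). Of 12 bile acid transport genes 2 rose and 1 fell, with the basolateral exporter gene Slc51a higher (log2 1.40, SE 0.32, adjusted p = 0.00416). Of 11 genes for the uptake and sensing of short-chain fatty acids, which colon bacteria make, 0 rose and 1 fell: Ffar2, a receptor for them, measured 9.21, 9.40 and 9.77 in KO_antibiotic, against 9.90, 10.24 and 10.72 in KO_untreated (log2 -0.80, SE 0.17, adjusted p = 0.00176). The share called in that list, 9.09%, was below the 14.8% of all genes.

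The metallothionein genes Mt1 and Mt2 rose. Mt1, which is induced by zinc, measured 13.86, 14.61 and 14.87 in KO_antibiotic, against 11.91, 12.57 and 12.91 in KO_untreated and rose 3.75-fold (log2 1.91, SE 0.23, adjusted p = 8.88e-06). Its neighbour Mt2 rose 5.03-fold (log2 2.33, SE 0.40, adjusted p = 0.000323). Mt3, outside the list and added after its value was seen, fell (log2 -1.14, SE 0.23, adjusted p = 0.00158). Of the 19 genes of the metal handling list, Mt1 and Mt2 included and Mt3 not, 4 rose and 2 fell (median 0.05). The iron exporter gene Slc40a1 rose (log2 1.17, SE 0.29, adjusted p = 0.0071), a call lost without KO_antibiotic 5 and 6 together. Hamp, which encodes the hormone that blocks that exporter, fell (log2 -1.67, SE 0.41, adjusted p = 0.0071), with KO_untreated 1 far above the others. Antioxidant and NRF2 genes rose in 3 of 26 cases and fell in 3 (median 0.18), and rose in 8 without KO_antibiotic 5 and 6. Gpx2, the glutathione peroxidase of gut epithelium, measured 10.83, 11.12 and 11.55 in KO_antibiotic, against 13.21, 13.44 and 13.76 in KO_untreated and was 5-fold lower (log2 -2.32, SE 0.23, adjusted p = 8.56e-07), while catalase, Cat, was higher (log2 1.14, SE 0.20, adjusted p = 0.000399).

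Other large rises and falls fell outside these groups. Bmp3, a signal of the bone morphogenetic protein family, measured 8.48, 9.40 and 10.14 in KO_antibiotic, against 6.16, 6.75 and 7.45 in KO_untreated (log2 2.60, SE 0.37, adjusted p = 4.01e-05), and Nbl1, an antagonist of such signals, was higher as well (log2 2.15, SE 0.28, adjusted p = 1.45e-05). Bmp1, a procollagen protease despite its name, rose (log2 2.15, SE 0.27, adjusted p = 9.48e-06), and so did the vasoconstrictor peptide gene Edn2 (log2 2.02, SE 0.32, adjusted p = 0.000116), the iodotyrosine deiodinase gene Iyd (log2 2.11, SE 0.25, adjusted p = 5.18e-06) and Casp14 (log2 2.22, SE 0.46, adjusted p = 0.00176). Further rises were in Plscr4 (2.24, adjusted p = 3.56e-07), Pbld2 (2.06, adjusted p = 1.96e-06) and Odf3b (2.04, adjusted p = 1.98e-06). Among the falls, Gsdmc4 of the pore-forming gasdermin family measured 4.36, 4.66 and 5.17 in KO_antibiotic, against 7.25, 8.16 and 8.98 in KO_untreated (log2 -3.51, SE 0.41, adjusted p = 4.23e-06). Dlk1, a Notch-related membrane protein gene, fell 9.93-fold (log2 -3.31, SE 0.23, adjusted p = 8.02e-09). Rad9a, whose product acts in the checkpoint for damaged DNA, fell 8.4-fold by its brightest probe (log2 -3.07, SE 0.40, adjusted p = 1.62e-05), while the other tested probe did not pass.

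Of 33 heat shock and immediate early genes 6 fell, all of them heat shock genes, and 0 rose (median -0.08). Averaged over the list after centring each gene, KO_untreated 1 stood at -0.16, within the range of the treated arrays, -0.224 to -0.126. The other untreated arrays, which carry the suffix, stood at 0.125 to 0.335. Why KO_untreated 1 differs from them was not tested. Hspa1a, the inducible cytosolic chaperone, measured 4.54, 4.83 and 5.47 in KO_antibiotic, against 6.81, 8.18 and 9.62 in KO_untreated (log2 -3.34, SE 0.47, adjusted p = 4.01e-05), and its near-identical neighbour Hspa1b fell with it (log2 -2.38, SE 0.44, adjusted p = 0.000685). The disaggregase gene Hsph1 (log2 -1.96, SE 0.29, adjusted p = 6.45e-05) and Dnajb1 (log2 -0.73, SE 0.15, adjusted p = 0.00146) were lower. Fos, an immediate early gene that handling of tissue can induce, overlapped and did not pass (log2 0.29, SE 0.25, adjusted p = 0.534).

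Of 20 cholesterol synthesis genes 4 fell and 0 rose (median -0.33), and 7 fell without KO_antibiotic 5 and 6. Fdps, the farnesyl diphosphate synthase gene, measured 10.27, 10.47 and 10.79 in KO_antibiotic, against 11.18, 11.33 and 11.76 in KO_untreated (log2 -0.89, SE 0.16, adjusted p = 0.000485), and the pathway's transcription factor gene Srebf2 fell without overlap (log2 -0.74, SE 0.15, adjusted p = 0.00164). Fatty acid synthesis genes counted 4 lower of 20 (median -0.09), with the malic enzyme gene Me1 (log2 -1.55, SE 0.33, adjusted p = 0.00267) and the desaturase gene Fads1 (log2 -1.46, SE 0.36, adjusted p = 0.00717). Fatty acid oxidation genes counted 5 higher of 35 and 0 lower (median 0.31), among them Acaa2, a thiolase gene (log2 0.87, SE 0.24, adjusted p = 0.0148). Without the same arrays that count was 10 higher. Of 35 oxidative phosphorylation genes 3 rose and 0 fell (median 0.12), and of 21 glycolysis genes 1 rose and 1 fell (median 0.10). The share called was 14.3% for fatty acid oxidation, 8.57% for oxidative phosphorylation and 9.52% for glycolysis genes. Among all genes 14.8% were called and 6.16% rose.

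Mast cell protease genes fell. Of 11 tested neutrophil, eosinophil and mast cell markers, 7 fell and 0 rose (median -1.02), and the 7 are mast cell genes. Mcpt1, a chymase of mucosal mast cells, measured 4.37, 6.24 and 7.31 in KO_antibiotic, against 8.42, 9.82 and 11.30 in KO_untreated and was 14.5-fold lower (log2 -3.86, SE 0.58, adjusted p = 7.08e-05). Cma2, another chymase gene, measured 4.28, 4.47 and 6.13 in KO_antibiotic, against 7.12, 8.06 and 9.22 in KO_untreated (log2 -3.47, SE 0.42, adjusted p = 6.64e-06). Mcpt4 was undetected with antibiotics and fell at least 1.99-fold (adjusted p = 0.000505), and Cpa3, the mast cell carboxypeptidase, fell with overlap (log2 -1.46, SE 0.32, adjusted p = 0.00327). The neutrophil genes S100a8, S100a9 and Elane did not pass, and 12 of the 23 markers on the array, the mast cell genes Tpsab1, Tpsb2, Ms4a2, Gata1, Gata2 and Mcpt2 among them, did not reach the detection filter. The mean centred level of the list was -0.80 to -0.42 on the KO_antibiotic arrays and 0.10 to 0.95 on the KO_untreated arrays. In such bulk samples fewer cells of a type and less RNA per cell cannot be told apart.

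The mean centred level of 45 leukocyte markers spanned -0.44 to 0.26 in KO_antibiotic and -0.27 to 0.72 in KO_untreated, and its part in the results was not tested beyond adding it as a covariate, which left 2370 probes called. Of 11 B and plasma cell markers 0 passed (median 0.38), and of 17 T cell markers 1 fell, Cd8b1 (log2 -0.78, SE 0.14, adjusted p = 0.000497; list median 0.16). It was called by 1 of its 2 tested probes, and the call was lost with probes averaged per gene (-0.33, limma adjusted p = 0.171). Of 6 macrophage and dendritic cell markers 0 passed, and 17 of the 23 on the array, with Adgre1, Itgam, C1qa and Cx3cr1, did not reach the detection filter. Stromal, muscle and endothelial markers counted 3 lower of 12, with Fn1 undetected after antibiotics and lower at least 2.71-fold (adjusted p = 1.36e-05), while Col1a1, Col3a1 and Tagln did not reach the filter. Tuft cell genes fell in 8 of 19 cases (median -0.53), and in 3 without KO_antibiotic 5 and 6, among them Avil (log2 -0.90, SE 0.21, adjusted p = 0.00479) and Krt18, a keratin gene that is no marker of tuft cells alone (log2 -1.24, SE 0.15, adjusted p = 9.41e-06). Of 18 enteroendocrine genes 2 rose, Tac1 (1.27, adjusted p = 0.00215) and Ddc (0.93, adjusted p = 0.0029), and 1 fell, the progenitor factor gene Neurog3 (-0.99, adjusted p = 0.00182). The share called among enteroendocrine genes, 16.7%, was near the 14.8% of all genes.

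Lipase genes known from the pancreas were among the largest falls. Pnliprp2 measured 4.67, 7.56 and 8.81 in KO_antibiotic, against 11.22, 11.95 and 13.31 in KO_untreated and was 30.3-fold lower (log2 -4.92, SE 0.87, adjusted p = 0.000399). The colipase gene Clps measured 6.90, 8.71 and 9.38 in KO_antibiotic, against 10.62, 11.47 and 12.59 in KO_untreated (log2 -3.03, SE 0.58, adjusted p = 0.00093), and Pnliprp1 fell without overlap (log2 -3.06, SE 0.76, adjusted p = 0.00778). The other tested pancreas genes behaved otherwise: Amy2a5, Cela2a, Cela3b and Cpb1 did not pass, with differences of -0.26 to 0.22, and the acinar genes Cel, Ctrb1, Prss2 and Cpa1 did not reach the detection filter. The elastase gene Cela1 rose (0.94, adjusted p = 0.0199), a call lost without KO_antibiotic 6 (adjusted p = 0.0503) or KO_untreated 2 (adjusted p = 0.0508).

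**Figure D3:**
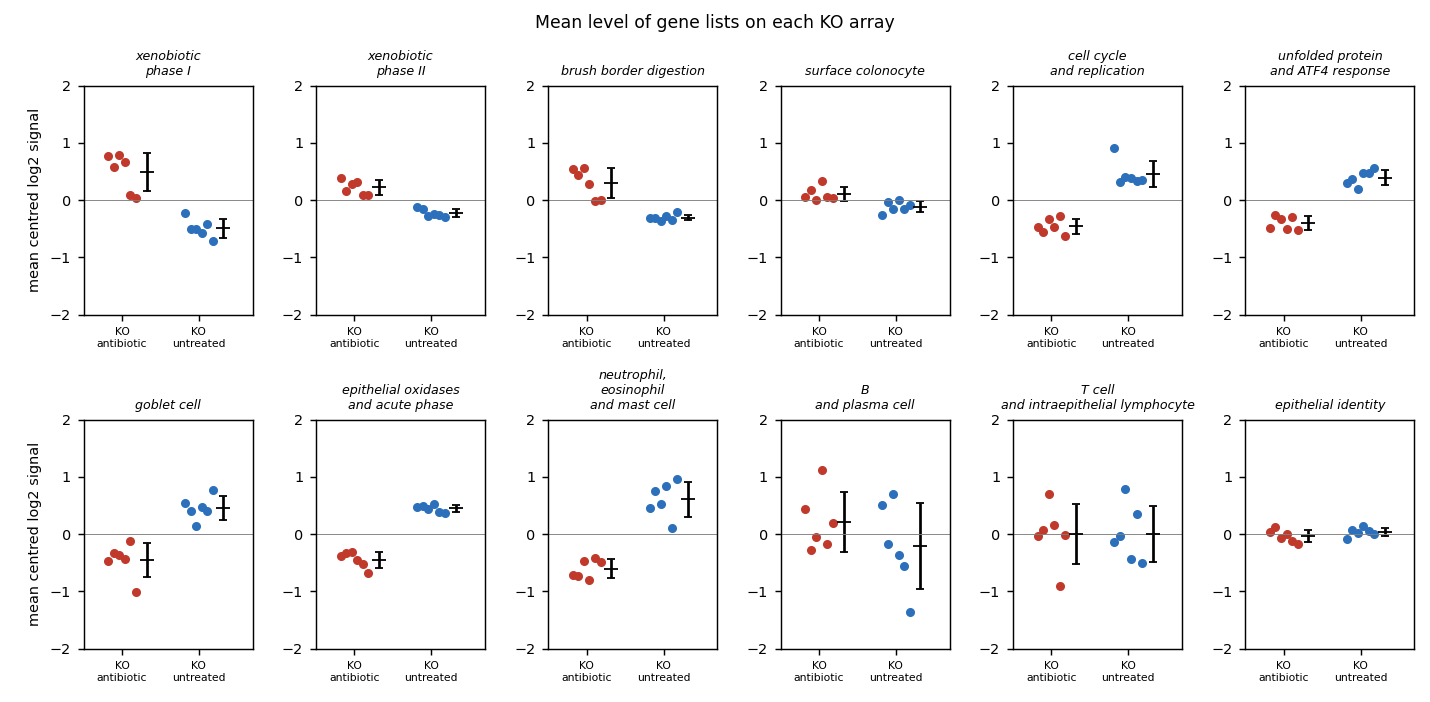
Mean level of 12 gene lists on each KO array, after each gene was centred on the KO arrays, in log2 units, with KO_antibiotic left of KO_untreated and black bars for the mean and SD of 6 arrays. The groups are apart for the phase I, cell cycle, unfolded protein, goblet, oxidase and mast cell lists and overlap for B cell, T cell and epithelial identity lists. Among the treated arrays, KO_antibiotic 5 and 6 are lowest in the phase I list, at 0.09 and 0.04.

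Of 14 MHC class II genes 1 rose and 1 fell, a share near the 14.8% of all genes that passed, with a median of -0.60. H2-DMb1, which helps to load peptides, measured 5.66, 6.37 and 7.13 in KO_antibiotic, against 7.56, 8.53 and 10.09 in KO_untreated (log2 -2.26, SE 0.54, adjusted p = 0.00602), and the lysosomal protease gene Ctss rose (log2 0.60, SE 0.15, adjusted p = 0.00771). The class II chain gene H2-Ab1 (log2 -1.07, SE 0.45, adjusted p = 0.132), the invariant chain gene Cd74 (log2 -1.25, SE 0.42, adjusted p = 0.0502) and the transactivator gene Ciita (log2 -0.64, SE 0.34, adjusted p = 0.254) did not pass. Cd74 passed under some alternatives, with an adjusted p of 0.0305 without KO_antibiotic 4 and 0.0321 without KO_untreated 1, and H2-Ab1 passed when only the 12 KO arrays were fitted (adjusted p = 0.0472). Interferon-stimulated genes counted 1 higher and 4 lower of 35 (median -0.60), and 2 lower without KO_antibiotic 5 and 6, with Irf8 lower (log2 -0.75, SE 0.17, adjusted p = 0.00378) and Ifi27 higher (log2 0.78, SE 0.15, adjusted p = 0.0011). Class I presentation genes counted 3 lower of 19 (median -0.30), and 1 lower without those arrays. The share called was near that of all genes in both of these lists as well. Of 18 genes for chemokines and cytokines 4 rose and 5 fell (median 0.19). Il15, which sustains intraepithelial lymphocytes, measured 8.12, 8.46 and 8.80 in KO_antibiotic, against 7.33, 7.56 and 7.65 in KO_untreated (log2 0.92, SE 0.14, adjusted p = 0.000103), and the chemokine gene Ccl9 measured 6.92, 7.15 and 7.76 in KO_antibiotic, against 8.19, 9.15 and 9.85 in KO_untreated (log2 -1.80, SE 0.28, adjusted p = 0.000119). Of 29 genes of bacterial sensing 2 fell, a smaller share than among all genes: the lipopolysaccharide coreceptor gene Cd14 (log2 -0.88, SE 0.21, adjusted p = 0.00684) and the signal inhibitor gene Irak3 (log2 -1.02, SE 0.20, adjusted p = 0.00113). The inhibitor gene Socs3 (log2 -1.66, SE 0.35, adjusted p = 0.00194) and the NF-kappaB cofactor gene Nfkbiz (log2 -1.71, SE 0.30, adjusted p = 0.000378) fell as well.

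The remaining lists held few calls. Of 7 genes of polymeric immunoglobulin transport 0 passed by limma (median 0.11). Tight junction and adhesion genes counted 2 higher and 1 lower of 25, with the light chain kinase gene Mylk higher (log2 1.08, SE 0.18, adjusted p = 0.000288) and the claudin gene Cldn15 lower (log2 -1.23, SE 0.23, adjusted p = 0.000679). Nuclear receptor genes counted 3 higher of 22 (median 0.34), among them the xenobiotic sensor gene Nr1i3 (log2 0.75, SE 0.18, adjusted p = 0.00526). Circadian genes counted 2 higher of 15 (median 0.44), with Cry2 of the clock's repressors higher (log2 0.92, SE 0.17, adjusted p = 0.000757). Of 5 red blood cell markers and 2 neuron and glia markers 0 passed. The share called was 12% for tight junction, 13.6% for nuclear receptor and 13.3% for circadian genes, against 14.8% of all genes.

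In WT epithelium 596 genes passed (5.57%), 285 higher (2.66%) and 311 lower (2.91%), from 5 arrays a group against 6. The WT_untreated arrays were uneven. Pla2g4c read 12.08 and 10.86 on WT_untreated 3 and 4 and 4.33 to 6.86 on the other 3, and Duoxa2 read 8.79 and 8.12 there against 6.02 to 7.34. Mcpt1 read 8.21 and 8.41 on these arrays against 5.35 to 6.41 on the others. Without WT_untreated 3 and 4, a choice made after their levels were seen, 118 WT genes passed (1.1%), 44 higher and 74 lower. That fit also had only 3 WT_untreated arrays, and no other WT pair was left out. How much of the lower count is due to the levels of arrays 3 and 4 or to the smaller group was therefore not tested. Of the 1580 genes called in KO mice, 1478 (93.5%) had the same sign in WT mice, 411 were called the same way (26.0% of the KO calls and 69.0% of the WT calls), and 0 were called the opposite way. The size was larger in KO than in WT for 1359 of the 1580, which were picked on their KO difference, with medians of 0.72 in KO and 0.45 in WT. Without WT_untreated 3 and 4, 1383 of the 1580 had the same sign, 100 were called the same way, and the WT median was 0.35. The difference between the 2 responses was tested directly as an interaction. By limma 2 of 19993 probes passed (0.01%), 1755 had an unadjusted p under 0.05 (8.78%), and 0 of 10705 genes passed with their brightest probe. Without WT_untreated 3 and 4, 61 probes passed.

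**Figure D4:**
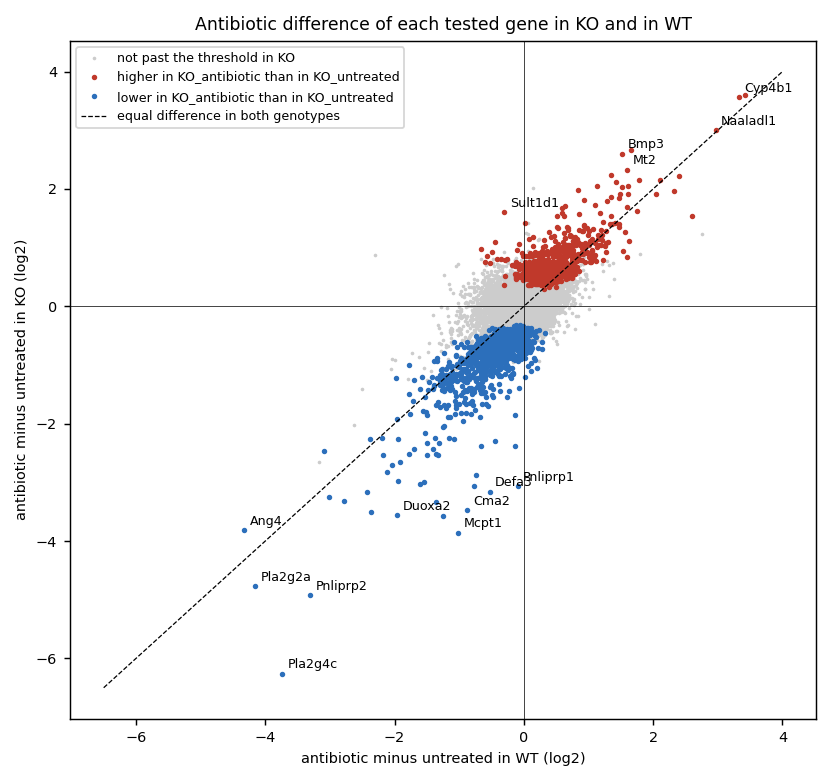
Antibiotic minus untreated difference in KO (vertical, log2) against that in WT (horizontal, log2) for all 10705 tested genes. Coloured points passed the threshold in KO, 659 higher and 921 lower, and the dashed line marks equal differences. Cyp4b1 and Naaladl1 lie close to that line, and Defa3, Cma2, Mcpt1 and Pnliprp1 lie far below it.

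Some genes had similar differences in both genotypes. Naaladl1 differed by 2.97 (adjusted p = 4.11e-05) in WT mice, Cyp4b1 by 3.33 (adjusted p = 0.000155) and Slc7a9 by 2.04 (adjusted p = 3.68e-06), each near its KO value given above. Pla2g2a differed by -4.16 in WT mice (adjusted p = 7.88e-05). It read 13.5 and 11.9 on WT_untreated 3 and 4 and 9.4 to 9.8 on WT_untreated 1, 2 and 5, so its WT size depends on arrays 3 and 4. The probes with a tested interaction were a second probe of Defa3 (interaction -2.71, adjusted p = 0.0148) and a probe without a gene name (interaction -3.21, adjusted p = 0.0129). Brightest probes with the smallest interaction p did not pass: Defa3 (-2.63, adjusted p = 0.0689), Defa20 (-2.25, adjusted p = 0.0689), P4ha2, a collagen hydroxylase gene (-0.89, adjusted p = 0.107), Sult1a1 (1.07, adjusted p = 0.126) and Sult1d1 (1.91, adjusted p = 0.126). Defa20 was detected on 0 of 6 KO_antibiotic and 6 of 6 KO_untreated arrays, and on 0 of 5 WT_antibiotic and 0 of 5 WT_untreated arrays. Sult1d1 lay between 9.66 and 10.74 in WT_antibiotic and between 10.44 and 10.98 in WT_untreated mice, near the KO_antibiotic levels. Fdps also lay lower in both WT groups than in KO_untreated mice, and its interaction did not pass (-1.04, adjusted p = 0.161). Mcpt1 was lower in KO but not past the threshold in WT (-1.02 (adjusted p = 0.396)), with an interaction of -2.84, adjusted p = 0.424.

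**Figure D5:**
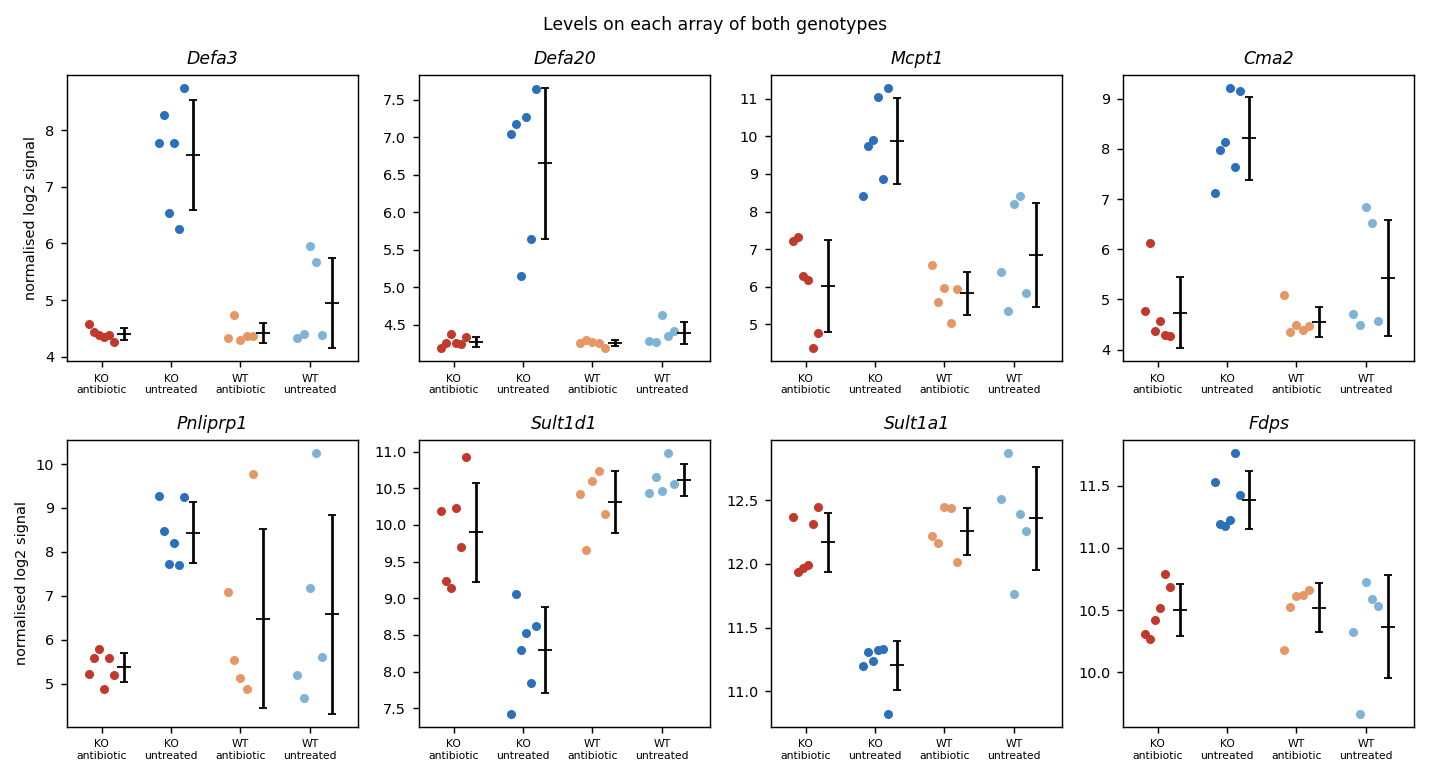
Normalised log2 signal of 8 genes on each array of the 4 groups, with points for single arrays and black bars for the mean and SD (6 KO_antibiotic, 6 KO_untreated, 5 WT_antibiotic and 5 WT_untreated arrays). KO_untreated stands apart from the other 3 groups for Defa20, Cma2, Sult1d1 and Fdps, among others. Pnliprp1 varies widely in both WT groups, up to 9.79 in WT_antibiotic and 10.26 in WT_untreated.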

How the data were processed

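Per the file headers, the authors deposited mean bead intensity and a detection p-value for each of 45281 probes on 22 Illumina arrays. A second deposited table held the authors' processed intensity, quantile-normalised as its values show and with its steps not given in the sources used here, and served as an alternative. Per the labels, RNA was amplified and labelled with biotin. The sources at hand give no software versions.

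Intensities were corrected with normexp on detection p-values, given an offset of 16, quantile-normalised and log2-transformed (neqc, limma 3.58.1 in R 4.3.3). Kept were 19993 probes detected at p under 0.05 on at least 5 arrays. One limma fit over all 22 arrays gave each contrast, with Benjamini-Hochberg adjusted p under 0.05 as the threshold. The number of arrays limits precision. Scripts were tested on simulated data. Gene names came from GRCm38.p6 annotation by gene identifier (34807 probes) or accession (11), while 67 probes kept the file's symbol. Probes with several symbols (18) or none (10378) named no gene.

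"At least" folds set the detected group's mean against the dim group's mean of, per array, the higher of the probe's own signal and the lowest signal among detected probes. Named are the 15 largest rises and falls, up to 4 members of each of 44 gene lists by smallest p (up to 2 where fewer than 2 passed), the 5 smallest interaction p-values and Pigr, 157 genes in all, plus 97 chosen after their values were seen. Members and lists were chosen with earlier results of these data known. Alternatives covered background correction, scaling, the authors' values, filters, array weights, covariates, a replicate block, and arrays left out.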

Additional observations from a re-analysis of the deposited data

Results flagged for a closer look

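On 35 of 508 pairs of a named gene and a KO group (6.89%), 1 of the 6 arrays lay apart from the rest, with a gap to its nearest neighbour that was large for the group's whole range by Dixon's criterion. Chance gives such a gap in about 1 in 20 groups. KO_untreated 1 accounted for 11 of them, KO_antibiotic 6 for 6, KO_antibiotic 5 for 5, and KO_untreated 2, KO_untreated 4 and KO_antibiotic 3 for 0. On KO_antibiotic 1 the gap, as a share of the range, stood out for Cpa3 (0.686). KO_antibiotic 2 stood apart in the same measure for Cma2 (0.735). On KO_antibiotic 4 the gap, as a share of the range, stood out for Atp5c1 (0.634), Creld2 (0.634) and Mep1b (0.778). KO_antibiotic 5 stood apart in the same measure for Ddit3 (0.633), Duox2 (0.758), Neurog3 (0.678), Odf3b (0.763) and Reg4 (0.771). On KO_antibiotic 6 the gap, as a share of the range, stood out for Ang4 (0.813), Clca1 (0.823), Hsp90aa1 (0.668), Muc2 (0.886), Muc4 (0.703) and Retnlb (0.856). KO_untreated 1 stood apart in the same measure for Angptl4 (0.723), Atp5c1 (0.64), Gsdmc2 (0.685), Hamp (0.731), Hsph1 (0.674), Lbp (0.832), Mcm10 (0.726), Mcm2 (0.667), Mcm5 (0.711), Slc26a2 (0.643) and Sulf2 (0.759). On KO_untreated 3 the gap, as a share of the range, stood out for Lrig1 (0.684), Mrc1 (0.647) and Ptprc (0.751). KO_untreated 5 stood apart in the same measure for Clca3b (0.716). On KO_untreated 6 the gap, as a share of the range, stood out for Cdc20 (0.716), Creld2 (0.796), Cyba (0.653) and Sult1a1 (0.743). 

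The antibiotic effect differed between genotypes by a tested interaction, KO minus WT, for a second probe of Defa3 (-2.71 on the log2 scale, adjusted p = 0.0148) and for a probe with no gene name (-3.21, adjusted p = 0.0129), both by limma over 19993 probes. The brightest probe of Defa3 read 4.34 to 4.40 on WT_untreated 1, 2 and 5, within the range of the KO_antibiotic arrays. On WT_untreated 3 and 4 it read 5.95 and 5.66, above that range. How far background limits the WT difference was not tested.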

How the results depend on the processing

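The count of probes that passed in KO stayed within 1.5 times of 2478 in all alternatives but 1, between 1886 without KO_antibiotic 3 and 4 and 3025 with each array's detected probes as a covariate, and between 2052 and 2460 when 1 array was left out. With probes averaged per gene 1731 genes passed, against 1580 by the brightest probe. The count moved to 420 with KO_untreated 1 as the only untreated array, which has fewer samples, and the share higher among the calls was then 17.9%, against 43.0% with all arrays. No other alternative moved that share by over 10 points: the replicate block gave 2458 and 44.5%, KO_antibiotic 3 and 4 left out together 1886 and 39.5%, and KO_antibiotic 5 and 6 left out together, chosen after seeing the data, 2485 and 51.2%. Same-numbered KO arrays are not shown to be paired: their deviations correlated at -0.35 to 0.28, over 0.1 in 3 of 6, and 1 of 6 matched its own number best. The 2 probes with an interaction became 0 with no background correction, with the authors' values, with no filter, with probes averaged per gene, and without KO_antibiotic 3 and 4 or 5 and 6 together. They became 61 without WT_untreated 3 and 4 together, chosen after seeing the data, which left 2486 probes called in KO, 17 with array weights and 13 with 1 untreated array, and 2 to 13 with 1 array left out (13 without KO_untreated 3, 9 without KO_untreated 5 and 4 without KO_untreated 6). The cause was not tested. Of 228 named genes that passed, 36 lost the call without at least 1 array, 48 under another alternative other than the 1-array one, and 168 under any. Of 26 named genes that did not pass, 7 passed under at least 1 alternative: Bsg, Cd74, H2-Ab1, Hspa8, Muc2, Pigr and Sdc1. Set against KO_untreated 1 alone, the difference turned to -0.10 for Angptl4, -0.0553 for Atp5c1, -0.27 for Cd79b, -0.0554 for Sdc1 and 0.42 for Pigr, of which Angptl4 and Atp5c1 had passed with all arrays. Hbb-b2, never past the threshold, turned to 0.015 with array weights, 0.048 without KO_antibiotic 5 and 6, and spanned -0.40 to 0.0042 with 1 array left out, above 0 without KO_untreated 1. Ncam1, also not past it, turned to 0.00025 without KO_antibiotic 3 and 4, 0.058 without 5 and 6, and spanned -0.12 to 0.0074 with 1 array left out, above 0 without KO_antibiotic 6. Signal over background limits dim genes, of which 120 were undetected on every KO_antibiotic array and 222 on every KO_untreated array. Of the 120, 44 fell, and of the 222, 23 rose. A gene detected in 1 group alone could pass the filter through that group, as Defa20 did, which fixes the direction of its call.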

Other observations

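Gene families taken by gene name, and chosen after their values were seen, also held changes in KO epithelium. They overlap the lists above, with Cdca7 also in the crypt base list and Cyp2d10 also in the phase I list. Their counts are therefore not separate from those given above. Genes of asparagine-linked glycosylation, which builds sugar chains onto proteins in the endoplasmic reticulum, fell in 10 of 18 cases and rose in 0 (median -0.53), against 8.6% and 6.16% of all genes. Rpn2, a subunit of the transferase that attaches the chain, averaged 12.20 ± 0.13 in KO_antibiotic and 13.03 ± 0.089 in KO_untreated (log2 signal, SD, n = 6 each). The translocon and transport genes between the reticulum and the Golgi counted 14 lower and 1 higher of 51 (median -0.34), with Kdelr3, a retrieval receptor gene, at -1.42 (limma adjusted p = 6.97e-05). Cytosolic aminoacyl-tRNA synthetase genes, which charge tRNA for protein synthesis, fell in 8 of 18 cases (median -0.46), with Wars at -1.20 (limma adjusted p = 0.00223). Ribosomal protein genes, by contrast in number, counted 2 lower of 55 (median 0.00).

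Centromere and chromosome segregation genes fell in 13 of 28 cases (median -0.53), with the centromeric histone gene Cenpa at -1.68 (limma adjusted p = 1.56e-05). Of 48 core histone genes 18 fell and 2 rose (median -0.44), but these are near-identical copies whose probes may share transcripts. All 3 tested gasdermin C genes fell: Gsdmc2 averaged 10.5 ± 0.47 in KO_antibiotic and 13.1 ± 0.40 in KO_untreated (log2 signal, SD, n = 6 each). All 3 tested Ifitm genes, which encode membrane proteins that restrict virus entry, fell too, Ifitm3 by 2.52 on the log2 scale (limma adjusted p = 0.000126). Of 8 tested genes of the Cyp2d cluster 6 rose and 0 fell (median 1.06), with Cyp2d26 at 1.96 (limma adjusted p = 0.000263). Gasdermin C, Ifitm and Cyp2d genes each lie in a cluster of related copies, so their probes may not be fully separate measurements.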
